A study of Rattus norvegicus with 16 samples.

Results

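The 38 genes described here drive cell division, 25 of them known for mitosis and 13 for the entry into and the conduct of DNA replication. They were listed by symbol, and each was read from an array probe set annotated to exactly 1 gene. For a gene with several such probe sets, which applied to Ccnb2 and Rrm2, the one with the highest mean over all arrays was kept. This left 33 genes, 22 of mitosis and 11 of replication, among 14506 genes measured. Mki67, Cenpe, Cenpf, Mcm3 and Mcm4 had no probe set of that kind and were not analysed here.

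The arrays, 16 in all with 1 per rat, measured lung RNA (right lung) from male Sprague-Dawley rats of 250 to 300 g, in 4 groups of 4 animals. Normoxia rats were controls without low pressure, and hypoxia rats were kept for 2 weeks at a pressure of 362 mmHg, which stands for 10% oxygen. Another group of hypoxic rats, called the estradiol group, received 17β-estradiol (E2), the main ovarian estrogen, at 75 µg/kg/day over 3 weeks from an osmotic pump under the skin, starting 1 week before the hypoxia. The fulvestrant group had the same hypoxia and pump plus daily injections of fulvestrant, an antagonist of the nuclear estrogen receptors, at 3 mg/kg/day. The series asks whether estradiol, through its receptors, lessens what hypoxia does to gene expression in the lung. No rat received estradiol or fulvestrant without hypoxia, and the labels mention no pump or injection without drug in the other groups. Lung vessels had been rinsed with saline before freezing, and every RNA integrity number was at least 9.

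Values are log2 signals after robust multi-array averaging (RMA), so a difference of 1 stands for a doubling. Levels of different genes cannot be set against each other closely, and the marker check that follows ranks them only roughly. Array medians over all genes lay between 8.59 and 8.67. The tissue label fitted the markers: 9 of 10 alveolar type 2 markers, 8 of 8 type 1 markers and 9 of 9 measured endothelial markers were in the top 10% of genes by level. The label of normoxia replicate 4 conflicts, since its title says normoxia and its treatment field hypoxia. It was kept as normoxia, and values with it counted as hypoxia are given below. Estradiol replicates 2 and 3 stood apart from the other estradiol arrays in the mean log2 level of 12 neutrophil markers, 1.25 and 1.06 above the normoxia mean against 0.42 and 0.26 in replicates 1 and 4, and results that rest on them are given without them too.

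A dividing cell turns on these genes in waves. Around the passage from G1 to S phase, E2F transcription factors raise cyclin E, the loaders and subunits of the MCM helicase, the sliding clamp and the enzymes that make deoxynucleotides. In G2 and mitosis, the MuvB complex with B-Myb and FOXM1 raises cyclin B, its kinase CDK1 and the proteins of the spindle, the checkpoint and cytokinesis, and in resting cells the related DREAM complex holds both waves down. Few cells of an adult lung divide at a time, and in hypoxic pulmonary hypertension division of vascular wall cells is a known part of the remodelling.

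The promoters of 5 members are shown because they hold letters known from the control of cell cycle genes, which the choice of members did not use. Each is the stretch of 180 bases before the annotated start, 5′ to 3′ on the gene's strand, from RefSeq, build GRCr8. Capitals mark every match, on either strand, to the cell cycle homology region (CHR, searched as TTTGAA or TTCGAA), the CCAAT box (searched as CCAAT, which reads ATTGG on the other strand) and an E2F site (searched as TTTCCCGC, TTTGGCGC, TTTCGCGC or TTTGCCGC). Top2a (chr10:84473094-84473273, minus strand), Cdk1 (chr20:19265113-19265292, plus strand) and Ccnb1 (chr2:33655226-33655405, minus strand) are mitosis genes, and Pcna (chr3:139955821-139956000, minus strand) and Mcm2 (chr4:122918095-122918274, minus strand) replication genes.
Top2a: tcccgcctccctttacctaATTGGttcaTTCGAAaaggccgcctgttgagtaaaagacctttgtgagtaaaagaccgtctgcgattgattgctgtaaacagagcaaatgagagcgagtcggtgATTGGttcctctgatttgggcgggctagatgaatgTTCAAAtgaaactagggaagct
Cdk1: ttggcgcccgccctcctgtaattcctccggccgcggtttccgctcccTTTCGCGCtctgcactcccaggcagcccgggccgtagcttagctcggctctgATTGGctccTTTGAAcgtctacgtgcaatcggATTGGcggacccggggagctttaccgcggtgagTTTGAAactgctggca
Ccnb1: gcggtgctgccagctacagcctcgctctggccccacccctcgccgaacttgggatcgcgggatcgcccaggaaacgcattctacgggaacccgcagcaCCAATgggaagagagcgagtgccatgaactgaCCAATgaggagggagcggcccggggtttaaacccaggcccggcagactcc
Pcna: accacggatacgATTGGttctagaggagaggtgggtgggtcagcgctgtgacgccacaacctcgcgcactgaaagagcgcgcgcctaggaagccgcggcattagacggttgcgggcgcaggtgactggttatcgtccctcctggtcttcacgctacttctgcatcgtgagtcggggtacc
Mcm2: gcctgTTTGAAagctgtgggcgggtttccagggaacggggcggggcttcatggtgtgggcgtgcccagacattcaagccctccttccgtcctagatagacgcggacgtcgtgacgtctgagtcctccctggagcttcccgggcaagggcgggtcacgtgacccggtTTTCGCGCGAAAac
In Top2a, TTCGAA reads the same on both strands, and in Mcm2 a pair of E2F matches on opposite strands overlap. Cdk1 holds all 3 motifs in this stretch. Ccnb1 holds CCAAT boxes alone among them, and Pcna a single CCAAT box.

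Promoters of 250 bases before to 50 bases after the start were found for 28 of the 38 members. CHR letters stood in 13 of 20 mitosis promoters (65%) and 2 of 8 replication promoters (25%), against 19.7% of 33469 promoters in the table. E2F letters stood in 1 of 20 mitosis promoters (5%), that of Cdk1, and in 7 of 8 replication promoters (87.5%), against 2.14% of all. CCAAT boxes stood in 16 of 20 (80%) and 5 of 8 (62.5%), against 37.5%. CCAAT boxes were thus frequent in both lists, and Mcm2 and Mcm7 held CHR letters as well. The differences in share between the lists were not tested, and a match is a description of the letters and not of a bound factor.

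Hypoxia against normoxia asks what 2 weeks of low oxygen did. Most of the genes had higher means in hypoxia, led by Rrm2, a subunit of the enzyme that makes deoxynucleotides (log2 difference 0.71, SE 0.241), and by Cdk1, the kinase of mitotic entry (0.69, SE 0.195), with 4 rats in each group. Foxm1, Tyms and Pcna differed by 0.10, 0.05 and 0.03. After adjustment over all 14506 genes with limma, 0 of 33 members passed an adjusted p of 0.05, where 5.63% of all genes did. At an unadjusted p under 0.05, 15 of the 33 were higher and 0 lower, against 11.5% of all genes higher. The mean in hypoxia was above that in normoxia for 31 of 33 members, against 58% of all genes, and the exceptions were Aurkb and Mcm7. The median log2 difference was 0.29 over the mitosis genes and 0.24 over the replication genes, against 0.03 over all genes. These medians and counts describe the lists and carry no test of their own. In whole lung, more dividing cells and more of each transcript per dividing cell cannot be told apart.

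**Figure D1:**
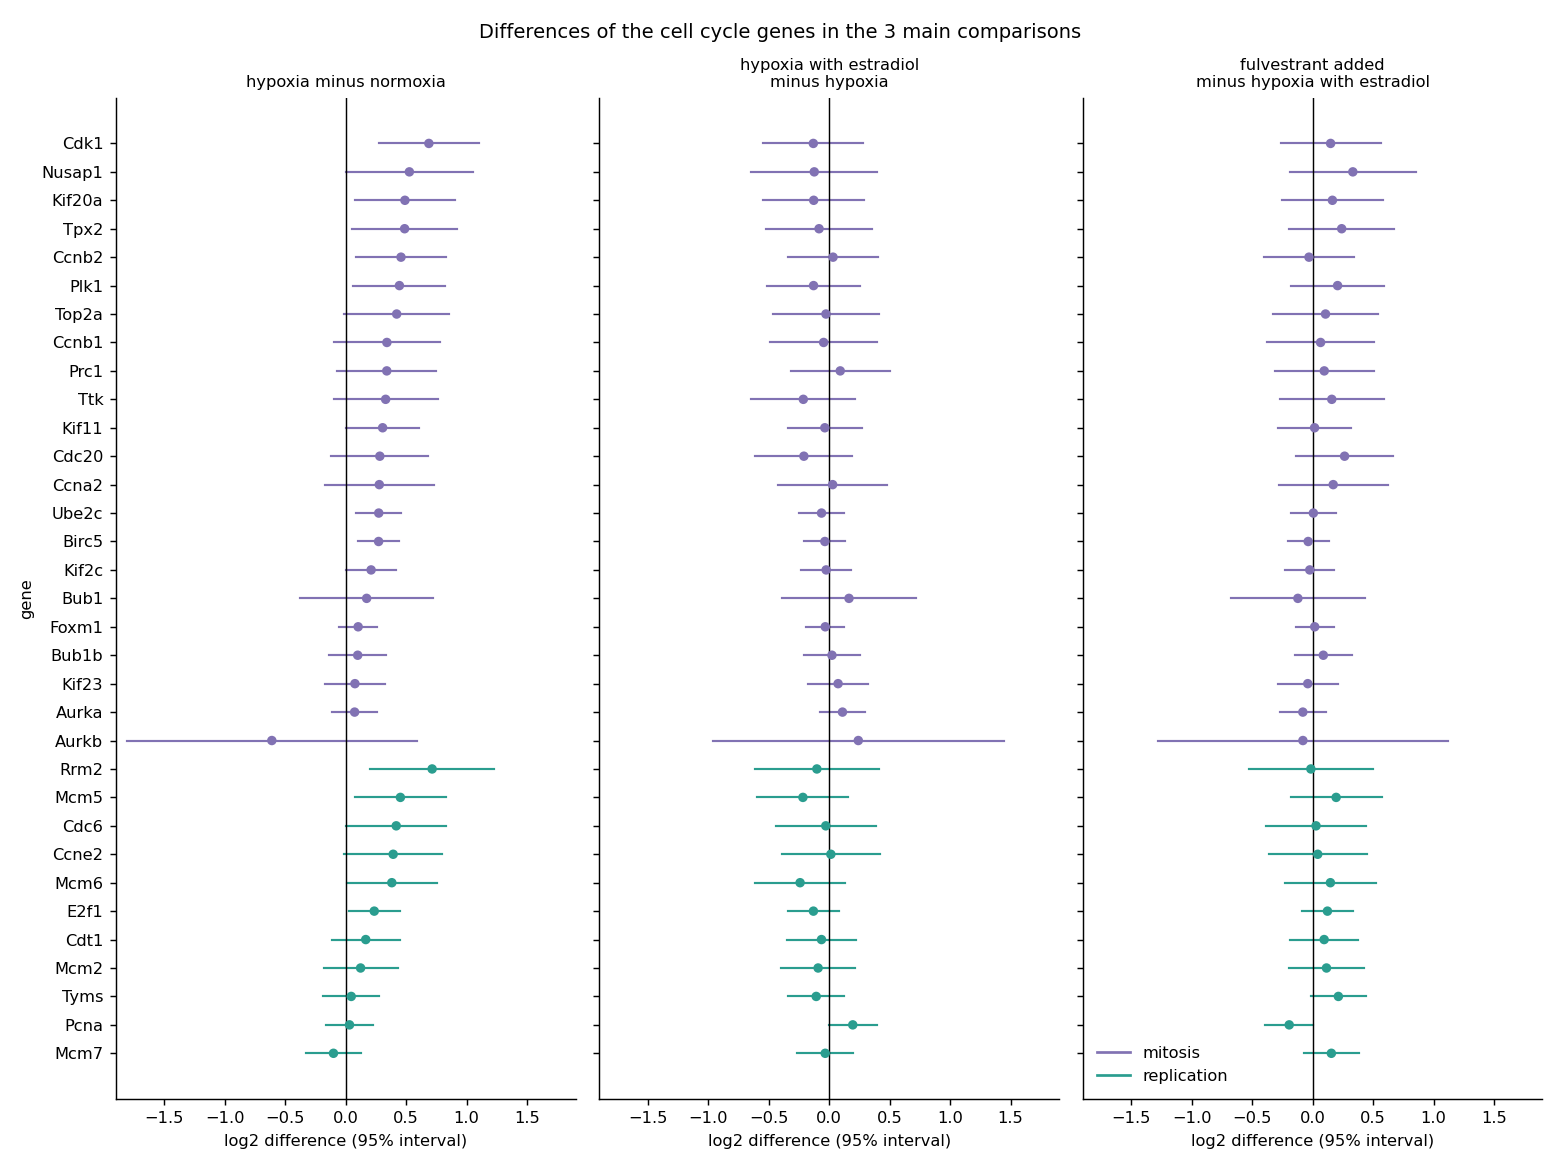
Log2 difference between group means for each of the 33 measured members in the 3 main comparisons, with 95% intervals from limma, mitosis and replication genes in separate colours. In hypoxia against normoxia 31 of 33 points lie above 0, while no member passed an adjusted p of 0.05.

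Among the regulators that bring a cell into mitosis, Cdk1, the kinase that starts it, came nearest to the threshold. Its log2 levels were 6.55, 7.34, 7.28 and 6.74 on the normoxia arrays and 7.82, 7.55, 7.30 and 7.98 on the hypoxia arrays. Hypoxia replicates 1, 2 and 4 were above every normoxia array and hypoxia replicate 3 lay inside the normoxia range. The difference was 0.69 (SE 0.195, 95% interval 0.27 to 1.10), 1.61-fold, with an adjusted p of 0.0507 in limma. Over 10 alternative fits and 16 with 1 array left out, Cdk1 had an adjusted p between 0.0274 and 0.0487 (limma) in 9. Among these was the fit without hypoxia replicate 3, where its difference was 0.81. Cdk1 did not pass in the rest, among them the fit with normoxia replicate 4 as hypoxia and that of the compared groups alone. Its levels were 8.03, 7.24, 7.32 and 7.55 under estradiol and 7.60, 7.73, 7.82 and 7.57 with fulvestrant added. All 4 fulvestrant arrays were above all 4 normoxia arrays, and the difference from normoxia was 0.70 (adjusted p 0.0679, limma).

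Ccnb1, the cyclin B1 that activates CDK1, was at 6.64, 7.27, 7.44 and 7.07 in normoxia and 7.64, 7.36, 6.94 and 7.84 in hypoxia. The groups overlapped, and the difference of 0.34 (95% interval -0.10 to 0.78) did not pass. With estradiol it was at 7.75, 6.98, 7.30 and 7.56, and with fulvestrant added at 7.20, 7.44, 7.78 and 7.43. Ccnb2, the second B-type cyclin, averaged 7.44 ± 0.31 in normoxia, 7.90 ± 0.40 in hypoxia, 7.93 ± 0.20 under estradiol and 7.90 ± 0.11 with fulvestrant added. Ccna2, cyclin A2 of S and G2 phase, averaged 7.88 ± 0.37 in normoxia, 8.16 ± 0.34 in hypoxia, 8.18 ± 0.33 under estradiol and 8.35 ± 0.31 with fulvestrant added. The estradiol and fulvestrant means of both cyclins thus lay within 1 SD of the hypoxia mean. Plk1, the Polo-like kinase, averaged 8.05 ± 0.31 in normoxia, 8.49 ± 0.27 in hypoxia, 8.36 ± 0.30 under estradiol and 8.57 ± 0.25 with fulvestrant added, and the hypoxia difference of 0.44 had an adjusted p of 0.17. Aurka, the Aurora kinase of the spindle poles, averaged 7.03 ± 0.07 in normoxia, 7.10 ± 0.19 in hypoxia, 7.21 ± 0.13 under estradiol and 7.13 ± 0.08 with fulvestrant added. Foxm1, the transcription factor of the mitotic genes, was at 8.34, 8.46, 8.59 and 8.37 in normoxia and 8.64, 8.55, 8.44 and 8.55 in hypoxia. Its estradiol levels were 8.71, 8.47, 8.39 and 8.48 and its fulvestrant levels 8.47, 8.50, 8.58 and 8.56. The groups overlapped, the hypoxia difference was 0.10 (95% interval -0.05 to 0.26), and Foxm1 varied least within groups of all mitosis genes.

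**Figure D2:**
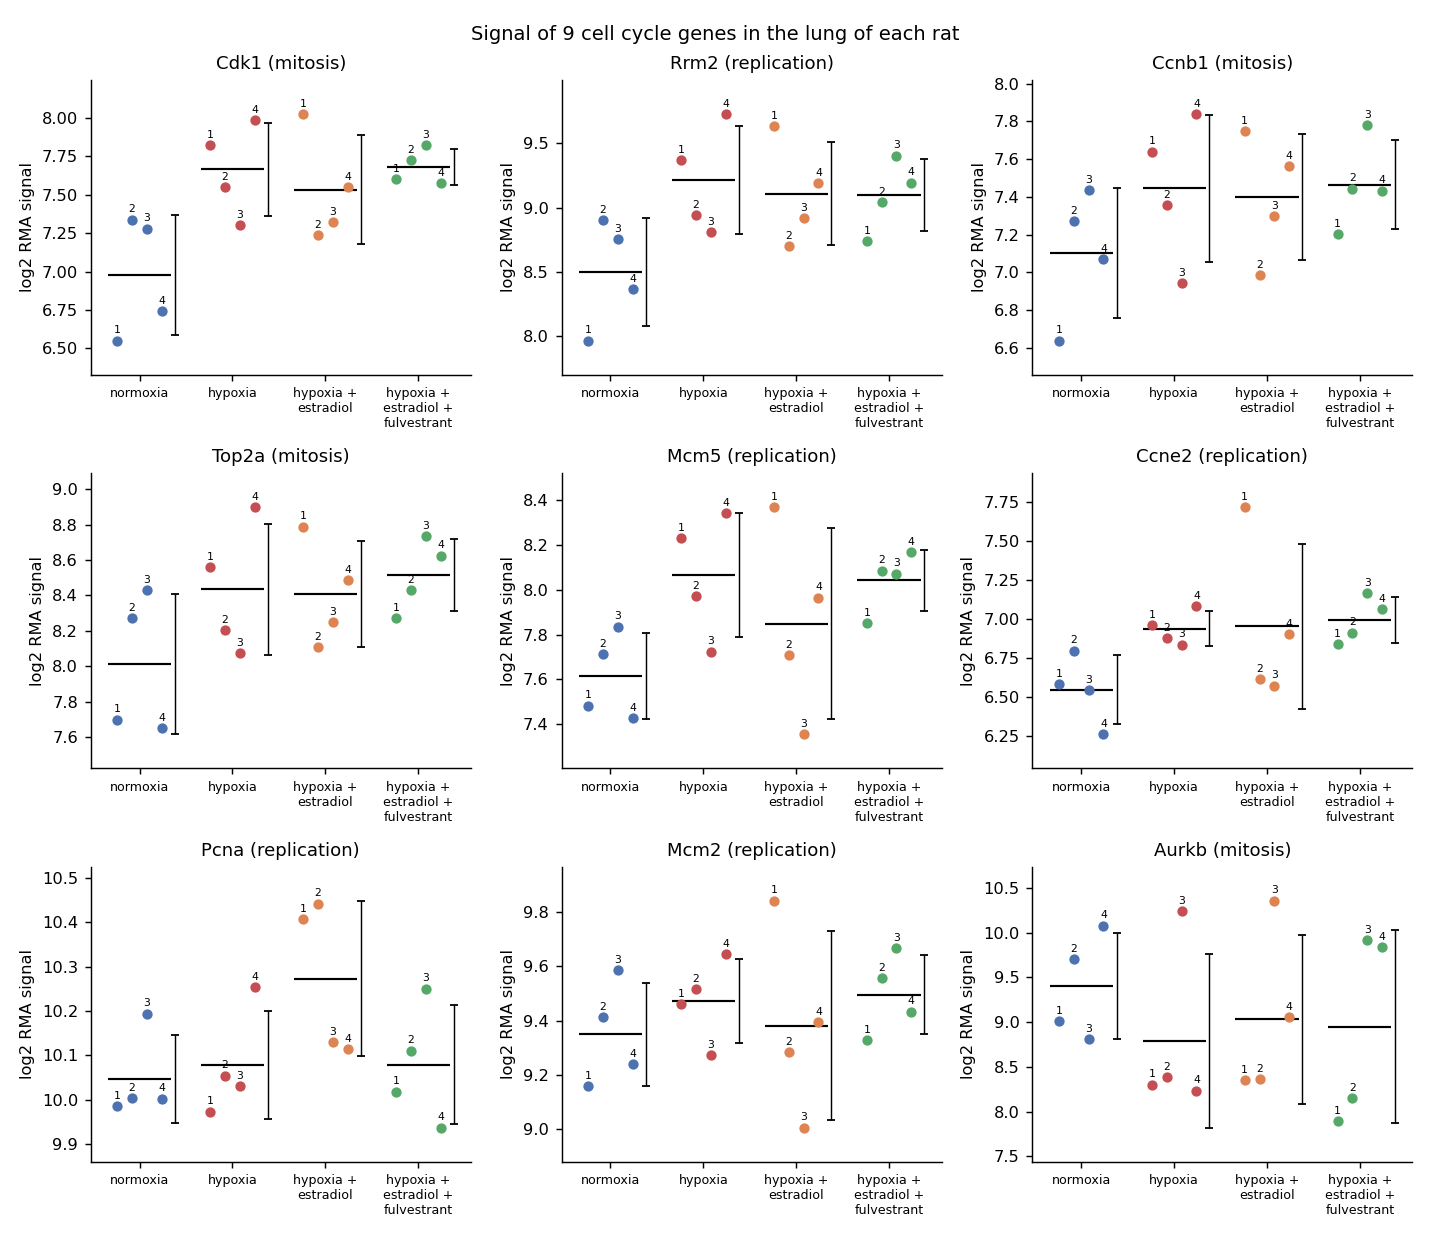
Log2 RMA signal of 9 of the genes on each of the 16 arrays in 4 groups of 4 rats, where points are rats, horizontal lines group means and error bars the SD (n = 4). Hypoxia replicate 3 is the lowest hypoxia array for 29 of 33 members and hypoxia replicate 4 the highest for 29.

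Topoisomerase Top2a, which untangles sister chromosomes, was at 7.70, 8.27, 8.43 and 7.65 in normoxia and 8.56, 8.21, 8.08 and 8.90 in hypoxia. Its levels were 8.79, 8.11, 8.25 and 8.49 under estradiol and 8.27, 8.43, 8.73 and 8.62 with fulvestrant added. Normoxia replicates 1 and 4 were the lowest of the 16 arrays and the other normoxia arrays lay within the hypoxia range; the difference was 0.42 (95% interval -0.01 to 0.86, adjusted p 0.262, limma). Nusap1, which bundles spindle microtubules, was at 7.24, 7.75, 7.58 and 6.60 in normoxia and 7.74, 7.76, 7.38 and 8.39 in hypoxia. With estradiol it was at 8.28, 7.36, 7.51 and 7.63 and with fulvestrant added at 7.86, 7.92, 8.15 and 8.17. Normoxia itself spread widely for this gene, and the difference of 0.53 (95% interval 0.0041 to 1.05) did not pass. Tpx2, which carries Aurora A to the spindle, was at 7.39, 7.94, 7.84 and 7.22 in normoxia, 8.15, 7.97, 7.76 and 8.45 in hypoxia, 8.48, 7.67, 7.88 and 7.96 under estradiol and 7.84, 8.17, 8.58 and 8.37 with fulvestrant added. Its difference of 0.49 (95% interval 0.05 to 0.92) had an adjusted p of 0.189. Kif20a, a kinesin of the late spindle, was at 6.84, 7.45, 7.34 and 6.84 in normoxia, 7.61, 7.47, 7.23 and 8.12 in hypoxia, 7.77, 7.18, 7.50 and 7.46 under estradiol and 7.39, 7.41, 7.96 and 7.81 with fulvestrant added. The difference was 0.49 (95% interval 0.07 to 0.91) and the adjusted p 0.166. The other spindle and cytokinesis genes had smaller differences. Kif11, the kinesin that separates the poles, averaged 7.02 ± 0.23 in normoxia, 7.33 ± 0.26 in hypoxia, 7.29 ± 0.22 under estradiol and 7.31 ± 0.18 with fulvestrant added. Kif23, a kinesin of the midbody, averaged 7.77 ± 0.19 in normoxia, 7.85 ± 0.06 in hypoxia, 7.92 ± 0.25 under estradiol and 7.88 ± 0.14 with fulvestrant added. Prc1, which bundles the midzone, averaged 8.32 ± 0.39 in normoxia, 8.66 ± 0.24 in hypoxia, 8.75 ± 0.32 under estradiol and 8.85 ± 0.26 with fulvestrant added, and Kif2c, which depolymerises microtubules at centromeres, 6.42 ± 0.21 in normoxia, 6.63 ± 0.16 in hypoxia, 6.61 ± 0.05 under estradiol and 6.58 ± 0.09 with fulvestrant added.

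Checkpoint and chromosome genes were measured by 5 members. Ttk, the checkpoint kinase MPS1, was at 5.56, 5.66, 6.10 and 5.45 in normoxia, 6.12, 5.92, 5.78 and 6.26 in hypoxia, 6.34, 5.41, 5.51 and 5.97 under estradiol and 5.59, 5.95, 6.37 and 5.95 with fulvestrant added. The groups overlapped throughout. Bub1, a kinase at kinetochores, averaged 7.19 ± 0.53 in normoxia, 7.36 ± 0.47 in hypoxia, 7.52 ± 0.37 under estradiol and 7.40 ± 0.22 with fulvestrant added, and Bub1b, its partner BUBR1, 6.15 ± 0.17 in normoxia, 6.25 ± 0.17 in hypoxia, 6.27 ± 0.15 under estradiol and 6.36 ± 0.17 with fulvestrant added. Birc5, the survivin subunit of the chromosomal passenger complex, was at 6.87, 7.05, 7.01 and 6.81 in normoxia and 7.22, 7.16, 7.08 and 7.37 in hypoxia. Its levels were 7.23, 7.13, 7.05 and 7.28 under estradiol and 7.03, 7.06, 7.28 and 7.17 with fulvestrant added. It was the only mitosis gene whose hypoxia arrays all lay above its normoxia arrays, with a difference of 0.27 (95% interval 0.10 to 0.44) and an adjusted p of 0.058 in limma. Groups that did not overlap, with hypoxia higher, were found for 3 of 33 members, Birc5, E2f1 and Ccne2, against 6.74% of all genes.

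Aurkb, the Aurora kinase of the same passenger complex, was the 1 measured mitosis gene with a lower mean in hypoxia than in normoxia. Its levels were 9.01, 9.71, 8.81 and 10.08 in normoxia, 8.30, 8.38, 10.24 and 8.23 in hypoxia, 8.35, 8.36, 10.36 and 9.06 under estradiol and 7.89, 8.15, 9.92 and 9.83 with fulvestrant added. In hypoxia, replicate 3 was high and the other arrays were all below every normoxia array, and single arrays, or a pair of them with fulvestrant added, stood high in the treated groups as well. The hypoxia difference of -0.61 (95% interval -1.81 to 0.59) did not pass. The SD of Aurkb within groups was 0.914, larger than that of 99.8% of genes, and every other mitosis gene had a mean above normoxia in hypoxia, with a median of 0.31 over those 21.

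At the exit from mitosis, Cdc20, which activates the anaphase-promoting complex, was at 7.94, 8.52, 8.43 and 8.11 in normoxia and 8.83, 8.46, 8.004 and 8.84 in hypoxia. It was at 8.76, 8.13, 8.09 and 8.31 under estradiol and 8.31, 8.66, 8.71 and 8.66 with fulvestrant added, where replicate 1 was low and the other arrays agreed closely. The difference between fulvestrant and estradiol was 0.26 (95% interval -0.14 to 0.67). Ube2c, the ubiquitin-conjugating enzyme of the same complex, averaged 8.76 ± 0.13 in normoxia, 9.03 ± 0.18 in hypoxia, 8.97 ± 0.10 under estradiol and 8.97 ± 0.05 with fulvestrant added. Its hypoxia difference of 0.27 had an adjusted p of 0.0799 in limma. Birc5, Ube2c, Ccnb2 and Cdk1 were the members below 0.05 when hypoxia replicate 3 was left out.

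Among the replication genes, those of the G1 to S passage came first in the wave. E2f1, the transcription factor of S phase entry, was at 7.79, 7.75, 7.91 and 7.80 in normoxia and 8.09, 8.01, 7.92 and 8.17 in hypoxia. Its groups did not overlap, with a difference of 0.24 (95% interval 0.03 to 0.45) and an adjusted p of 0.187 in limma. The estradiol arrays were at 8.25, 7.75, 7.67 and 7.998 and the fulvestrant arrays at 8.03, 8.02, 8.04 and 8.07. Ccne2, cyclin E2, was at 6.59, 6.80, 6.55 and 6.26 in normoxia and 6.96, 6.88, 6.84 and 7.09 in hypoxia, again without overlap, a difference of 0.39 (95% interval -0.01 to 0.80, adjusted p 0.26, limma). With estradiol it spread from replicate 1 at the top down to replicates 2 and 3, at 7.72, 6.62, 6.58 and 6.91, and with fulvestrant added it was at 6.84, 6.92, 7.17 and 7.06.

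The loading of the MCM helicase is done by Cdc6 and Cdt1. Cdc6 was at 6.30, 6.75, 6.47 and 6.61 in normoxia, 7.11, 6.92, 6.54 and 7.22 in hypoxia, 7.62, 6.68, 6.47 and 6.92 under estradiol and 6.91, 6.91, 6.94 and 7.04 with fulvestrant added. The difference in hypoxia was 0.42 (95% interval 0.0049 to 0.83). Cdt1 averaged 7.51 ± 0.09 in normoxia, 7.68 ± 0.13 in hypoxia, 7.61 ± 0.32 under estradiol and 7.71 ± 0.21 with fulvestrant added. Of the helicase subunits, Mcm5 was at 7.48, 7.71, 7.84 and 7.43 in normoxia, 8.23, 7.97, 7.72 and 8.34 in hypoxia, 8.37, 7.71, 7.36 and 7.97 under estradiol and 7.85, 8.09, 8.07 and 8.17 with fulvestrant added. Estradiol replicate 1 was the highest estradiol array and replicates 2 and 3 the lowest, and the hypoxia difference of 0.45 (95% interval 0.08 to 0.83) had an adjusted p of 0.157. Mcm6 was at 7.86, 7.75, 7.97 and 7.74 in normoxia, 8.40, 8.04, 7.95 and 8.44 in hypoxia, 8.58, 7.67, 7.58 and 8.04 under estradiol and 7.91, 8.13, 8.31 and 8.10 with fulvestrant added. Mcm2 was at 9.16, 9.41, 9.59 and 9.24 in normoxia, 9.46, 9.52, 9.27 and 9.64 in hypoxia, 9.84, 9.28, 9.01 and 9.39 under estradiol and 9.33, 9.56, 9.67 and 9.43 with fulvestrant added. Both overlapped between groups, and Mcm2 differed by 0.12 (95% interval -0.18 to 0.43) in hypoxia. Mcm7 averaged 9.99 ± 0.02 in normoxia, 9.89 ± 0.18 in hypoxia, 9.85 ± 0.27 under estradiol and 10.01 ± 0.05 with fulvestrant added, the 1 measured helicase subunit with a lower mean in hypoxia.

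Rrm2, the regulated subunit of ribonucleotide reductase, had the largest difference of all members between hypoxia and normoxia. It was at 7.96, 8.90, 8.75 and 8.37 in normoxia and 9.37, 8.94, 8.81 and 9.73 in hypoxia, a difference of 0.71 (SE 0.241, 95% interval 0.20 to 1.23) with an adjusted p of 0.0981 in limma. Hypoxia replicate 3 lay within the normoxia range and the other hypoxia arrays above it. Its levels were 9.63, 8.70, 8.92 and 9.19 under estradiol and 8.74, 9.04, 9.40 and 9.19 with fulvestrant added. Tyms, thymidylate synthase, was at 9.30, 9.14, 9.20 and 9.18 in normoxia, 9.20, 9.20, 9.14 and 9.47 in hypoxia, 9.51, 9.00, 8.89 and 9.17 under estradiol and 9.24, 9.42, 9.33 and 9.43 with fulvestrant added. Pcna, the sliding clamp, was at 9.99, 10.00, 10.19 and 10.00 in normoxia, 9.97, 10.05, 10.03 and 10.25 in hypoxia, 10.41, 10.44, 10.13 and 10.11 under estradiol and 10.02, 10.11, 10.25 and 9.94 with fulvestrant added. Hypoxia and normoxia overlapped for both, with differences of 0.05 (95% interval -0.18 to 0.28) and 0.03 (95% interval -0.17 to 0.23).

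**Figure D3:**
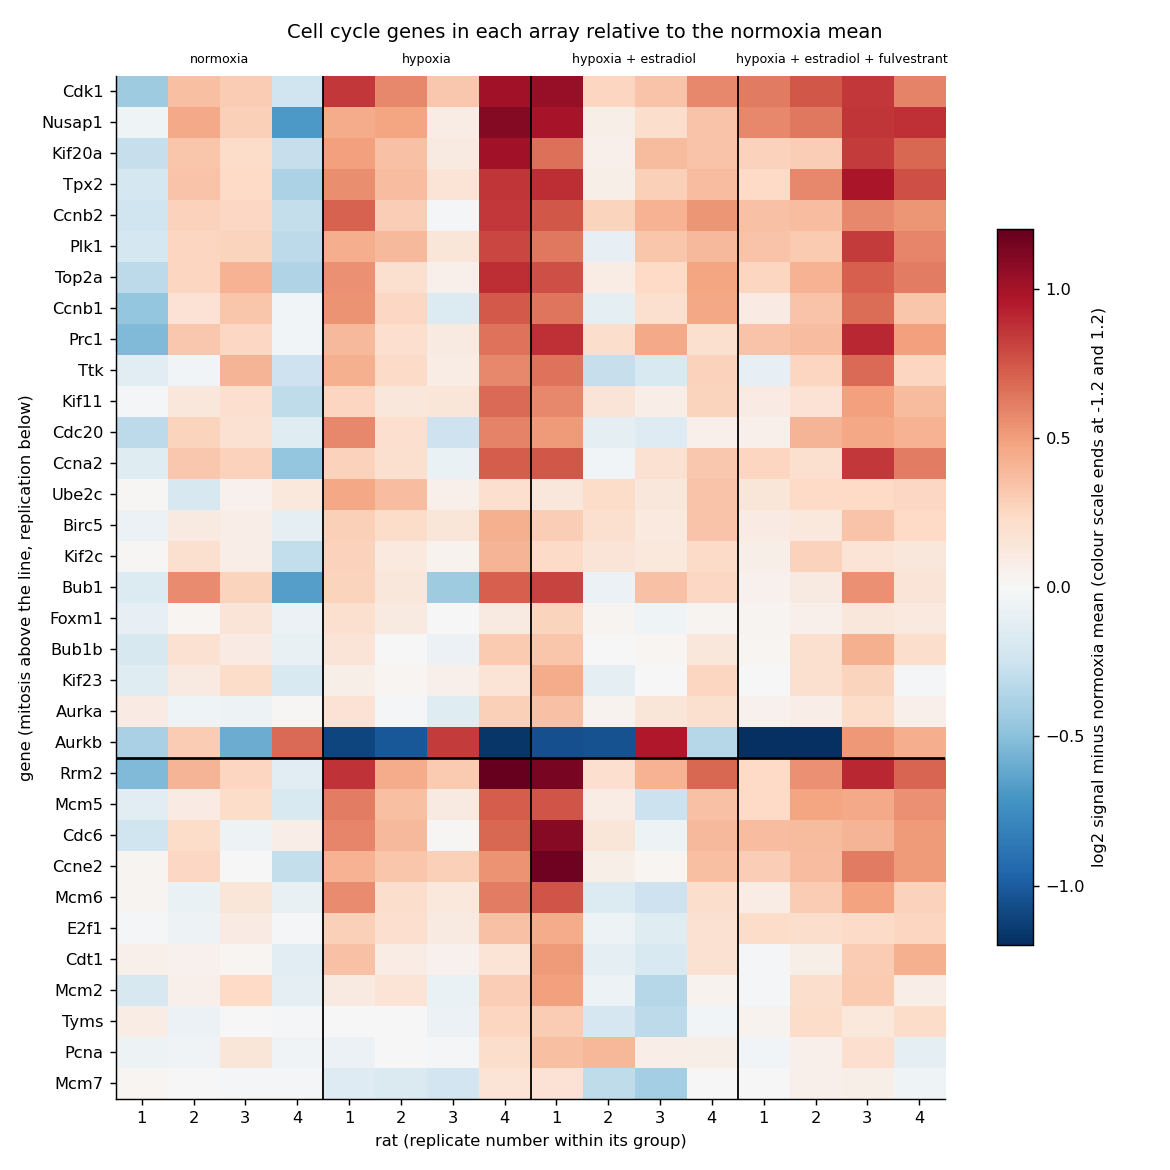
Log2 deviation of each of the 33 measured members from its normoxia mean on the 16 arrays, genes in rows with mitosis above replication and arrays in columns by group, with the colour scale ended at -1.2 and 1.2. Whole columns stand out, such as hypoxia replicate 4 and estradiol replicate 1 at the high end, and Aurkb is low on several arrays where most other genes are high, such as hypoxia replicate 4 and estradiol replicate 1.

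The arrays of a group differed for many members at once. Averaged over the 22 mitosis genes as deviations from the normoxia mean, the arrays were at -0.19, 0.21, 0.18 and -0.20 in normoxia, 0.33, 0.17, 0.06 and 0.54 in hypoxia, 0.53, -0.0019, 0.21 and 0.27 under estradiol and 0.11, 0.23, 0.57 and 0.40 with fulvestrant added. Averaged over the 11 replication genes they were at -0.09, 0.08, 0.09 and -0.09 in normoxia, 0.32, 0.18, 0.06 and 0.48 in hypoxia, 0.65, 0.00063, -0.13 and 0.22 under estradiol and 0.13, 0.26, 0.38 and 0.31 with fulvestrant added. Normoxia replicates 1 and 4 were low and 2 and 3 high in both averages, and the hypoxia order of replicates 4, 1, 2 and 3 was the same in both. Estradiol replicate 1 was the highest estradiol array for 29 of 33 members, against 27.4% of all genes, and hypoxia replicate 3 the lowest hypoxia array for 29, against 31.6%. Estradiol replicate 2 was the lowest of its group for 14 of 22 mitosis genes, and replicate 3 for 9 of 11 replication genes. Fulvestrant replicate 1 was the lowest of its group for 26 members and replicate 3 the highest for 25.

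**Figure D4:**
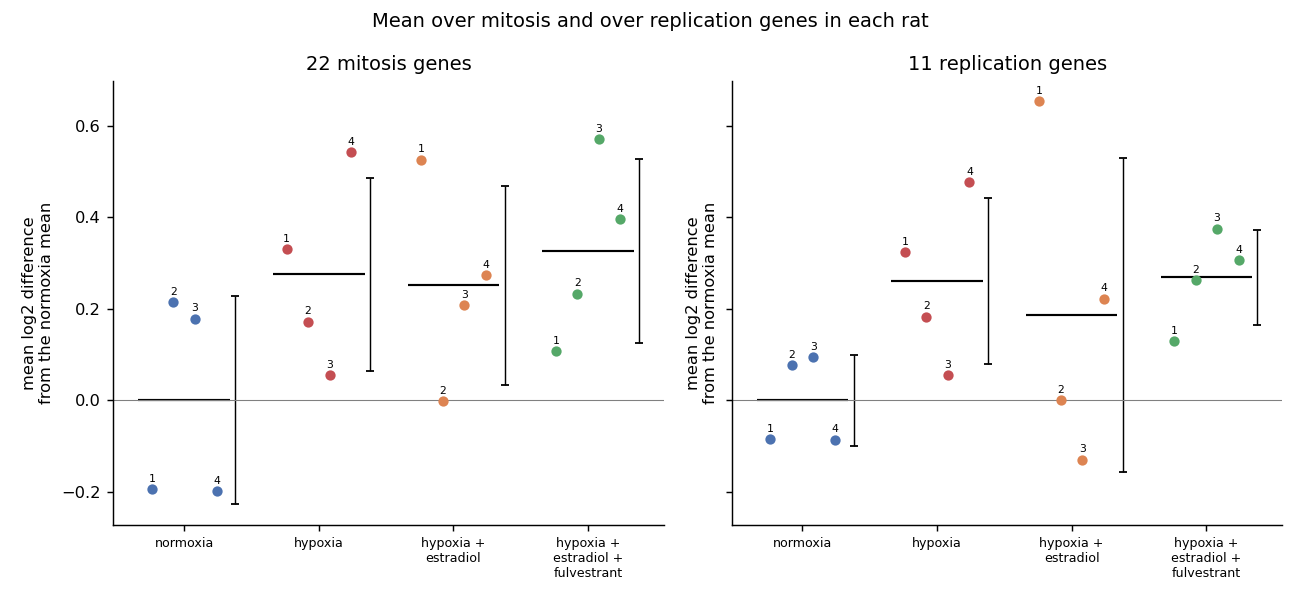
Mean log2 deviation from the normoxia mean over the 22 mitosis and the 11 replication genes, for each of the 16 arrays (points), with the group mean and SD (n = 4). Mitosis and replication means rank the normoxia and the hypoxia arrays in nearly the same way and part most in estradiol replicate 3, at 0.21 against -0.13.

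Within groups, the median SD was 0.303 over the mitosis genes, larger than that of 95.2% of genes, and 0.225 over the replication genes, larger than that of 89.3%. The median over all genes was 0.123. Normoxia replicates 1 and 4 were both below replicates 2 and 3 for 19 of 22 mitosis genes (86.4%) and 4 of 11 replication genes (36.4%), against 17.7% of all genes. That split was taken from the members' own values, so the count describes it and does not test it. Replicates 1 and 4 lay above 2 and 3 in the mean deviation of the 5 measured B cell markers (0.48, -0.32, -0.44 and 0.28 in replicates 1 to 4), of 10 T cell markers (0.11, -0.10, -0.29 and 0.28) and of 12 neutrophil markers (0.26, 0.02, -0.36 and 0.07). The 10 measured erythroid markers averaged 0.13, -0.11, 0.04 and -0.06 in normoxia, 1.33, 1.10, -0.02 and 1.22 in hypoxia, 1.10, 0.37, -0.04 and 0.58 under estradiol and 0.45, 1.30, 0.64 and 0.43 with fulvestrant added. Hypoxia replicate 3, the lowest hypoxia array for most members, was also the hypoxia array at the normoxia level for these markers, and estradiol replicate 3 the lowest of its group. With fulvestrant added, replicate 2 was highest for the erythroid markers, where replicate 3 was highest for most members. The 8 alveolar macrophage markers averaged 0.66, 0.51, 0.36 and 0.91 in hypoxia, also lowest in replicate 3. They averaged 0.60, 0.50, 0.93 and 0.52 under estradiol, highest in replicate 3, and 0.36, 0.46, 0.37 and 0.38 with fulvestrant added. Hemgn was the 1 erythroid marker of 10 that passed in hypoxia, by 1.27, and the defining markers Gata1 and Klf1 ranged from 6.14 to 6.82 and from 7.04 to 7.73 over the 16 arrays. In the same comparison 6 of 10 T cell markers fell, 5 of 8 alveolar macrophage markers rose, and 3 of 8 smooth muscle markers rose. Of 9 measured endothelial markers, Egfl7 and Emcn rose, by 0.73 and 0.69, and Tek fell by 0.35. Of all genes, 5.63% passed in either direction. The part of any of these cell types in the members' levels was not tested.

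**Figure D5:**
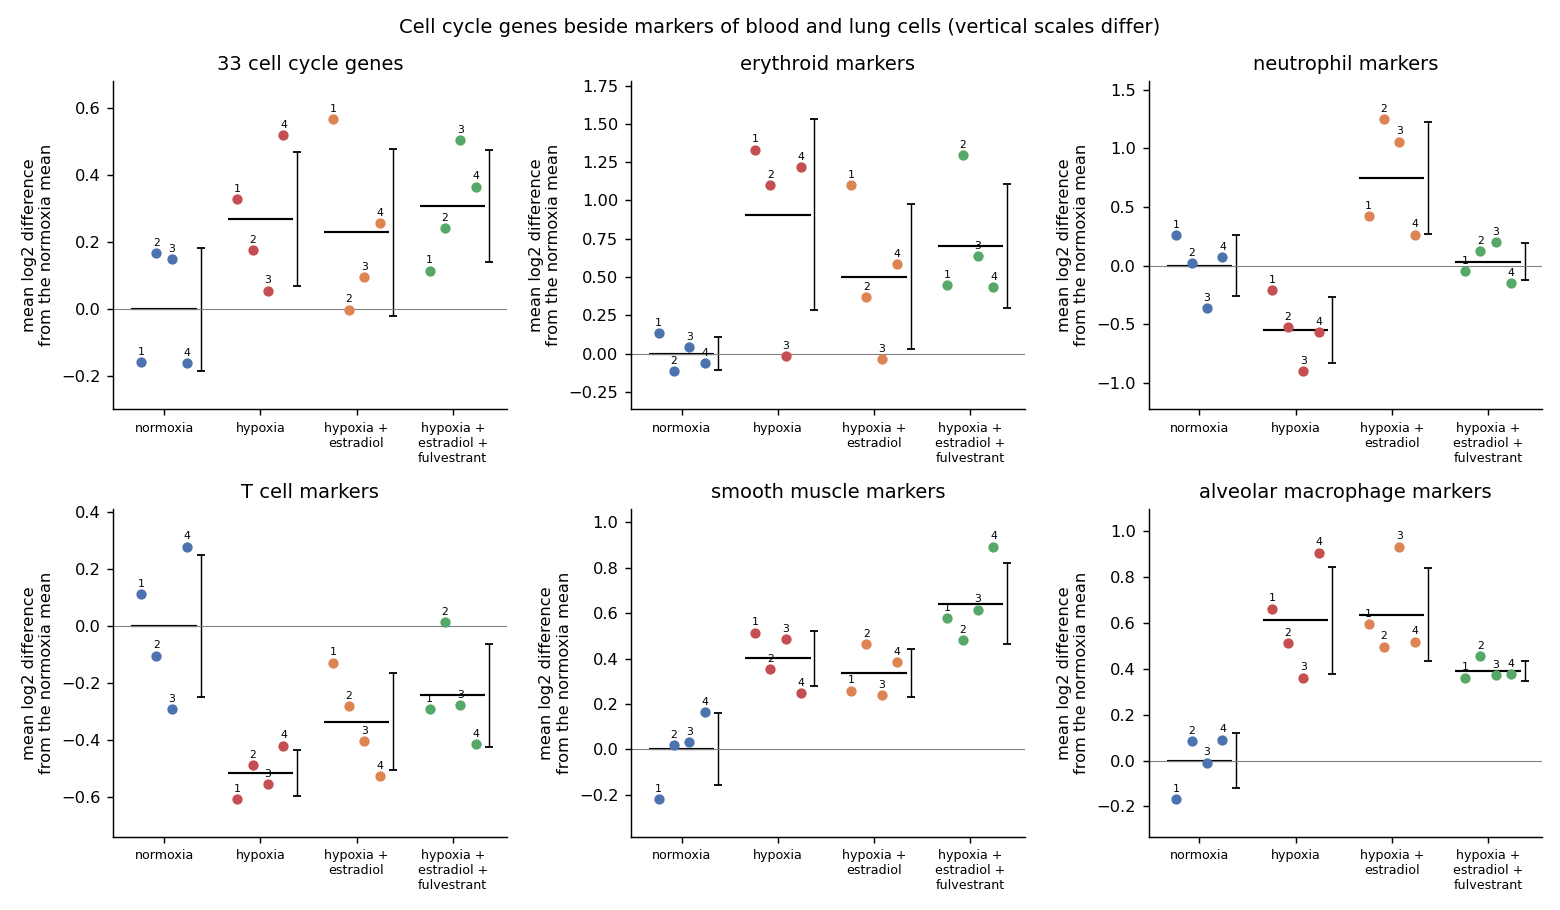
Mean log2 deviation from the normoxia mean of the 33 cell cycle genes and of erythroid, neutrophil, T cell, smooth muscle and alveolar macrophage markers on each of the 16 arrays (points), with group mean and SD (n = 4) and vertical scales that differ. Erythroid markers are at -0.02 in hypoxia replicate 3 against 1.10 to 1.33 on the other hypoxia arrays.

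Estradiol against hypoxia asks whether the hormone altered the hypoxic lung. With limma, 0 of 33 members passed, against 0.772% of all genes, and 0 members had an unadjusted p under 0.05, against 16.1%. Means were above those of hypoxia for 10 of 33 members, against 42.8% of all genes. The hypoxia arrays enter this comparison and the one above with opposite sign, so the pair is set side by side and not as independent results. Of the 12 neutrophil markers, 8 rose in this comparison, and their part in the members' levels was not tested. None of these markers passed without estradiol replicates 2 and 3, where 0% of all genes did. The median difference of the members was -0.03 over the mitosis genes and -0.09 over the replication genes. Mcm6 was lower by 0.24 (95% interval -0.61 to 0.13), Mcm5 by 0.22 (-0.59 to 0.16), Cdc20 by 0.21 (-0.61 to 0.19) and Ttk by 0.21 (-0.64 to 0.22), none of which passed. Pcna was higher by 0.19 (-0.0017 to 0.39, adjusted p 0.315, limma). With estradiol replicates 2 and 3 left out, the replication median was 0.18 and Mcm5, Mcm6, Cdc20 and Ttk all had differences above 0. Without estradiol replicate 1, the highest of its group for most members, the replication median was -0.24 and the mitosis median -0.11, with Mcm6 at -0.45 and Mcm5 and Ttk at -0.39.

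Fulvestrant added to estradiol asks whether blocking the receptors undid the hormone's part. Again 0 of 33 members passed in limma, against 0.0483% of all genes, and 0 had an unadjusted p under 0.05, against 14.8%. Means were above those of estradiol for 24 of 33 members, against 51.5% of all genes. The estradiol arrays enter this comparison and that of estradiol against hypoxia with opposite sign. Opposite directions in the pair are therefore not independent results. The median difference was 0.08 over the mitosis genes and 0.11 over the replication genes, the latter -0.15 without estradiol replicates 2 and 3 and 0.26 without estradiol replicate 1. Nusap1 was higher by 0.33 (95% interval -0.19 to 0.85), Cdc20 by 0.26, Tpx2 by 0.24 (-0.20 to 0.68), Tyms by 0.21 (-0.02 to 0.44) and Mcm5 by 0.19 (-0.18 to 0.57), and Pcna lower by 0.19 (-0.39 to 0.0029). Fulvestrant with estradiol against hypoxia alone had 0 members past the threshold in limma, as had all genes (0%), and 0 members at an unadjusted p under 0.05, against 6.96%. Means were higher for 23 of 33 members, against 43.3%, and the medians were 0.03 and 0.0012.

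Both treated groups were also compared with the normoxia arrays, which these comparisons share. For estradiol against normoxia 0 of 33 members passed in limma against 5.21% of all genes, and 8 had an unadjusted p under 0.05, all higher, against 9.44% of all genes higher. The groups did not overlap for Birc5 and Ube2c, against 5.03% of all genes. For fulvestrant against normoxia 0 of 33 passed against 2.96% of all genes, 16 were higher at an unadjusted p under 0.05 against 8.52%, and 10 did not overlap against 7.13%. Fitted on the arrays of these groups alone, Cdc6, Cdk1, E2f1 and Mcm5 had adjusted p values between 0.0340 and 0.0498 in limma, so the count was 4, where 3.87% of all genes passed in that fit. Means were above normoxia for 30 of 33 members under estradiol, against 50.1% of all genes, and for 32 of 33 with fulvestrant added, against 51.4%. Beside this, 3 of 8 smooth muscle and 5 of 8 alveolar macrophage markers rose in the estradiol group, and 6 of 8 and 1 of 8 in the fulvestrant group, and their part was not tested. Medians over the mitosis genes were 0.28 and 0.31, and over the replication genes 0.14 and 0.23. The replication median under estradiol was 0.35 without estradiol replicates 2 and 3 and -0.01 without replicate 1. The widest fulvestrant differences were those of Nusap1 (0.74, 95% interval 0.21 to 1.26), Cdk1 and Tpx2 (0.64, 0.21 to 1.08). In a test for any difference among the 4 groups, 0 of 33 members passed in limma, against 6.28% of all genes, and the smallest adjusted p was that of Cdk1, 0.0807. At an unadjusted p under 0.05 there were 7 members, against 22.3% of all genes.

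Counting normoxia replicate 4 as hypoxia moved the mitosis median of hypoxia against normoxia from 0.29 to 0.14. With that label 0.276% of all genes passed in this comparison, against 5.63% with the array kept as normoxia, and no member passed. Leaving out single arrays moved the number of members past the threshold in that comparison between 0 and 4, the latter without hypoxia replicate 3, where 6.8% of all genes passed. Without estradiol replicate 1, Cdk1 and Ccne2 passed, where 6.03% of all genes did. Cdk1 alone passed without normoxia replicate 2, normoxia replicate 3 or estradiol replicate 2, where 3.73%, 5.59% and 6.18% of all genes did. In fulvestrant against normoxia, Cdk1 and Ccne2 passed without estradiol replicate 1 (3.2% of all genes) and Cdk1 alone without normoxia replicate 2 (2.13%). In the test over all 4 groups Cdk1 passed without estradiol replicate 1. The share of all genes in that fit is not given here, and with all arrays kept it was 6.28%.

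Other genes of the pathway were read from lists chosen with earlier results of these data known. Of 55 measured further mitosis genes, among them kinesins, kinetochore and condensin genes, 0 passed in hypoxia, with 13 higher at an unadjusted p under 0.05 (limma, against the 11.5% of all genes), and the median difference was 0.20. Against normoxia, 3 of the 55 rose in the fulvestrant group, where 1.97% of all genes rose: Cks1b, a small partner of cyclin-dependent kinases, by 0.54 (SE 0.135), the kinetochore gene Cenpw by 0.41 and Knstrn, of the spindle, by 0.28. Knstrn passed with any single array left out, Cenpw in 10 and Cks1b in 7 of the 16 such fits, and none of the 3 with normoxia replicate 4 counted as hypoxia. In hypoxia against normoxia, Cks1b, Cenpw and Knstrn differed by 0.43, 0.20 and 0.17. The fulvestrant group differed from hypoxia by 0.11, 0.21 and 0.11, and none passed in either comparison. Of 54 further replication genes, among them polymerases, origin and clamp-loader genes, 1 fell in hypoxia, 0 rose, and the median was 0.03. In that comparison 5.63% of all genes passed in either direction. The gene that fell was Orc2, a subunit of the origin recognition complex, by 0.34 (SE 0.0732, adjusted p 0.0109, limma, and 0.104 with normoxia replicate 4 as hypoxia). Clspn, the checkpoint mediator claspin, was the 1 of the 54 that passed with estradiol against normoxia, where 5.21% of all genes did. It fell by 0.54 (adjusted p 0.0255, limma), but did not pass without estradiol replicates 2 and 3 (-0.50, adjusted p 0.157). Nor did it pass without normoxia replicate 1, 2 or 4 or estradiol replicate 1 or 3 alone (0.0592 to 0.0841). Clspn differed by -0.39 in hypoxia against normoxia (adjusted p 0.0928, limma) and by -0.15 in estradiol against hypoxia (0.611). The further replication genes thus had a median near that of all genes, where the 11 replication members had 0.24.

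Of 17 measured G1 cyclins, kinases, MYC and E2F genes, Mycn, a MYC-family transcription factor, was the 1 that passed in hypoxia, where 5.63% of all genes did. It was at 7.65, 7.48, 7.91 and 8.10 in normoxia and 9.31, 9.11, 8.82 and 8.97 in hypoxia. Every hypoxia array was above every normoxia array, and Mycn rose 2.41-fold, a log2 difference of 1.27 (SE 0.321, adjusted p 0.03, limma). With estradiol it was at 9.20, 7.45, 7.63 and 8.67, where replicates 2 and 3 lay at the normoxia level and 1 and 4 in or near the hypoxia range, and estradiol differed from hypoxia by -0.82 (adjusted p 0.235), or by -0.12 without replicates 2 and 3 and -1.14 without replicate 1. The rise in hypoxia did not pass without normoxia replicate 1 or 2 or hypoxia replicate 1, 2 or 4 (adjusted p 0.0576 to 0.0949, limma), nor with normoxia replicate 4 counted as hypoxia (0.142). With fulvestrant added it was at 8.35, 8.96, 9.53 and 8.73. Among the inhibitors of the cycle, 0 of 18 measured passed in hypoxia in limma, with 1 higher and 2 lower at an unadjusted p under 0.05, against 20.4% of all genes in either direction.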

How the data were processed

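RNA of 16 lungs was measured on Affymetrix rat gene arrays. The authors deposited log2 values made with RMA, which corrects background, normalizes between arrays and summarises probes, and the submitters' processing notes name RMA and Partek. Versions and settings are not given in the sources used here. Platform annotation gave 1 symbol to 15310 of 29214 probe sets, several to 323 and none to 13581. All 33 measured members kept their symbol in RefSeq.

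Groups came from titles. One model of 4 group means over 16 arrays was fitted with limma 3.58.1 in R 4.3.3 with empirical Bayes moderation, tested on simulated data, and p-values were adjusted by Benjamini-Hochberg over 14506 genes with a threshold of 0.05. No dim genes were left out. Arrays have no count depth, so 4 per group set the precision. RMA would hide a shift shared by most genes. The labels name no batch, and submission order follows the groups, so batch and treatment cannot be told apart.

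The members and lists were chosen with earlier results of these data known. Array values were given for members past the threshold, for the 4 mitosis and 4 replication members with the largest hypoxia difference, for 3 of each in the estradiol and in the fulvestrant comparison, and for Top2a, Cdk1, Ccnb1, Foxm1, E2f1, Pcna and Mcm2. From the other lists, the genes past the threshold were named. Birc5, Ube2c, Ccnb2 and Cdkn1a were named with values outside this rule, after their values were seen. Alternatives were median centring, repeated quantile normalization, leaving out the dimmest 20% of genes, averaging probe sets, fitting all probe sets, trended robust moderation, array weights, fitting only the groups compared, normoxia replicate 4 as hypoxia, omitting estradiol replicates 2 and 3, and omitting each array.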

Additional observations from a re-analysis of the deposited data

Results flagged for a closer look

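In 4 of the 140 groups of 4 arrays examined, 1 array lay far from the other 3, measured as its gap to the nearest of them over the whole range. Chance alone gives this in about 1 of 20 groups. Aurkb, the Aurora kinase of the chromosomal passenger complex, was at 10.24 in hypoxia replicate 3 against 8.23 to 8.38 on the other hypoxia arrays. Cdc20 was at 8.31 in fulvestrant replicate 1 against 8.66 to 8.71, and Ube2c, which works with the same ubiquitin ligase, was at 8.90 on that array against 8.99 to 9.01. Pcna was at 10.19 in normoxia replicate 3 against 9.99 to 10.00.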

How the results depend on the processing

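No paired analysis was possible because the titles carry a running sample code and no number is shared across groups. Of 181 counts of members past the threshold over all alternatives, 165 remained at 0. In hypoxia against normoxia the count was 1 with median centring, where 5.65% of all genes passed. It was 2 without the dimmest 20% of genes (7.69% of all genes), with array weights (7.95%) and without estradiol replicates 2 and 3 (7.24%). With single arrays left out it was 0 to 4 (2.95% to 6.8% of all genes). In estradiol against normoxia it was 1 (Ccne2) without estradiol replicates 2 and 3, where 2.24% of all genes passed. In fulvestrant against normoxia it was 1 with array weights (5.42%) and without estradiol replicates 2 and 3 (3.89%). With only the arrays of the groups compared it was 4 (3.87%), and with single arrays left out 0 to 2 (1.64% to 3.41%). In the test over 4 groups it was 0 to 1 when single arrays were left out. The share of all genes in those fits is not given here, and with all arrays kept it was 6.28%. Of 312 list medians 309 moved by less than the spread between replicates, an SD of 0.245 for mitosis and 0.182 for replication. That spread is near the size of the hypoxia medians themselves, 0.29 and 0.24, so a large change can count as unmoved. Without estradiol replicates 2 and 3 the replication median was 0.18 against hypoxia, 0.35 against normoxia, and -0.15 for fulvestrant against estradiol. Of 804 differences of named members, 784 kept direction and side of the threshold and 10 changed sign. Leaving out single arrays, Pcna in hypoxia against normoxia ran from -0.027 to 0.081 and Tyms from -0.026 to 0.083, below 0 without hypoxia replicate 4. In estradiol against hypoxia Aurkb was -0.017 with normoxia replicate 4 as hypoxia, -0.087 without estradiol replicates 2 and 3 and from -0.20 (without estradiol replicate 3) to 0.72 over single arrays left out, and without replicates 2 and 3 Cdc20 was 0.0024, Mcm5 0.10, Mcm6 0.10 and Ttk 0.13, while Mcm5 for fulvestrant against estradiol was -0.12. The cause was not tested. The genes named from the other lists were refitted under omitted arrays and the other label of normoxia replicate 4, which was chosen after seeing the data. Precision was limited by 4 arrays a group and by variation between rats, with a median within-group SD of 0.280 over the members against 0.123 over all genes.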

Other observations

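Inhibitors of the cell cycle were read on the same arrays. Cdkn1a, which encodes the inhibitor p21, was at 10.61, 10.08, 10.42 and 10.41 in normoxia, 10.37, 10.32, 10.62 and 9.93 in hypoxia, 9.97, 11.56, 11.22 and 10.52 with estradiol and 10.26, 10.28, 10.11 and 10.01 with fulvestrant added. Estradiol replicates 2 and 3 were the highest of the 16 arrays, and those were also the lowest estradiol arrays for most members, a link that was not tested. The difference of estradiol from hypoxia was 0.51 (adjusted p 0.338) and that of fulvestrant from estradiol -0.65 (adjusted p 0.236), and neither passed in limma. Without those arrays the values were -0.06 and -0.08. Against normoxia, estradiol rats had higher Gadd45g, a growth arrest gene, by 0.56 (SE 0.137, adjusted p 0.0265, limma), and higher Lin54, a subunit of the MuvB core, by 0.23 (SE 0.0524, adjusted p 0.0186). Cdkn2b, which encodes the inhibitor p15, fell by 0.45 (SE 0.0956, adjusted p 0.0128). Myc rose by 0.65 (SE 0.137, adjusted p 0.0129) in the same comparison, from 8.21, 8.15, 8.26 and 8.07 in normoxia to 8.62, 9.14, 9.13 and 8.40 with estradiol. Of all genes, 5.21% passed in that comparison, whose groups differ in hypoxia as well as in estradiol. Estradiol differed from hypoxia by 0.27 for Gadd45g (adjusted p 0.35), 0.16 for Lin54 (0.162), -0.22 for Cdkn2b (0.27) and 0.51 for Myc (0.0863). None of these passed in limma. Hypoxia differed from normoxia by 0.30, 0.07, -0.23 and 0.13 for the same genes, and none passed. Without estradiol replicates 2 and 3, Gadd45g differed from normoxia by 0.25 (adjusted p 0.214) and Myc by 0.33 (0.121) and neither passed, while Lin54 (0.27, 0.0450) and Cdkn2b (-0.54, 0.0285) did. Gadd45g also did not pass without normoxia replicate 1 or 2 or estradiol replicate 2 or 3 alone (0.0577 to 0.0808), nor, like Lin54 (0.0708), with normoxia replicate 4 as hypoxia (0.0603).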
